A study of Mus musculus with 6 samples.

Results

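The genes described here code for the protein subunits of the mitochondrial respiratory chain, measured in oligodendrocyte precursor cells in which Chd7 was knocked down. They were chosen by symbol from the probe annotation of the array: every symbol that begins with Nduf, Uqcr or Atp5, or with Cox followed by a digit from 4 to 8, together with Sdha, Sdhb, Sdhc, Sdhd, Cycs and Cyc1. The rule found 94 genes on 99 probes, of 19321 genes with a symbol on the array. Of these 94, 93 passed the filter on dim probes and were tested; Cox8c, a testis isoform of a complex IV subunit, was not above the blank spots on any array.

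The study compared 3 samples labelled Chd7 KD, infected with a retrovirus that knocks down Chd7, with 3 samples labelled Control, infected with a control retrovirus. All 6 were precursor cells of the oligodendrocyte lineage taken from the forebrain of E15.5 embryos of the Jcl:ICR mouse stock, kept in FGF2 and PDGF-AA and collected 3 days after infection. Each sample was read on its own one-colour array (Cy5). The sequence that the knockdown virus targets, its promoter and whether replicates came from separate cultures are not given in the sources used here, so the p-values speak of the spread among these 6 samples, which may be technical. Chd7 codes for a chromatin remodeller of the CHD family that acts in the oligodendrocyte lineage.

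The respiratory chain sits in the inner mitochondrial membrane. Complexes I and II pass electrons to ubiquinone, complex III passes them on to cytochrome c, and complex IV passes them to oxygen; complexes I, III and IV pump protons, and complex V (ATP synthase) lets the protons back to make ATP. Most subunits are encoded in the nucleus, and a small core of complexes I, III, IV and V is encoded in mitochondrial DNA; no symbol of that core is in the probe annotation, so the genes below are all nuclear. Cells of the oligodendrocyte lineage use much ATP for the membranes of myelin.

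Median raw signal per array was 83.4 to 89.4 in KD samples and 83.4 to 85.7 in Control samples, in the scanner's intensity units, and 87.0% to 89.8% of probes were above the blank spots. Levels below are log2 normalised intensities of a probe, and levels of different genes are not compared, because probes differ in how brightly they bind. Chd7 itself was at 8.54, 8.44 and 8.48 in KD samples and at 9.44, 9.20 and 9.47 in Control samples, which is a log2 fold change of -0.88 (SE 0.0855, limma adjusted p = 0.00112), or 54.3% of the Control level. Over all 17390 genes tested, limma called 781 genes higher and 896 lower in KD samples at an adjusted p below 0.05. KD and Control arrays were separated along principal component 1 (53.8% of the variance), and principal component 2 (20.6%) set the 2 arrays numbered 1 apart from the others. The file headers also divide the arrays by the slope between scanner gains: KD 2, Control 1 and Control 2 had slopes of 0.464 to 0.467 (gain set 1), and KD 1, KD 3 and Control 3 had slopes of 0.478 to 0.479 (gain set 2).

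Respiratory chain genes were higher in KD than in Control samples more often than lower, by small amounts. In the test across all genes, 12 of 93 rose (12.9%, against 4.49% of all genes tested): Atp5g1, Cox7a1, Atp5mpl, Ndufb2, Uqcrb, Cox5a, Ndufaf6, Cycs, Ndufv1, Atp5o, Ndufa3 and Uqcrq. One gene, Atp5g2, fell (1.08%, against 5.15% of all genes tested), and 80 did not pass. At an unadjusted p below 0.05, 43 were higher and 1, Atp5g2, was lower. The share of all genes at that unadjusted p was not computed, here or for the unadjusted counts below. The fold change was positive for 75 of 93 genes, with a median log2 fold change of 0.15 (quartiles 0.045 and 0.22), against a median of 7.7e-04 and 50.6% positive over all genes tested. All 3 KD arrays lay above all 3 Control arrays for 43 of 93 genes (46.2%, against 14.5% of all genes tested) and below them for 3 of 93 (3.23%, against 15.4%). In a fit that blocks on the replicate number, 24 genes rose (25.8%, against 7.38% of all genes tested) and 1 fell (1.08%, against 7.44%).

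Many of these probes are bright. Among the 1022 tested genes whose mean level lay between the quartiles of the respiratory chain genes' levels (10.1 and 12.5), 66 rose (6.46%), the median log2 fold change was 0.0035, and 20.5% had all KD arrays above all Control arrays. The quartiles of their log2 fold changes were -0.133 and 0.146, wider apart than those of all genes tested (-0.047 and 0.051). The median shift of the respiratory chain genes was present on every array: their median deviation from each gene's mean was 0.084, 0.080 and 0.045 on KD arrays 1 to 3, against -0.040, -0.074 and -0.059 on Control arrays 1 to 3, while that of all genes tested was within 0.0040 of 0. KD 3 had the smallest median deviation of the 3 KD arrays, and it held the highest value of the 6 arrays for 12 genes, against 34 genes for KD 1 and 28 for KD 2. Within gain set 1 the median log2 fold change of these genes was 0.13 with 81 of 93 positive, and within gain set 2 it was 0.13 with 66 of 93 positive. The median over all genes tested was -0.0022 within gain set 1 and 0.0013 within gain set 2. In each set of 3 arrays a group has a single array, so only fold changes are given.

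**Figure D1:**
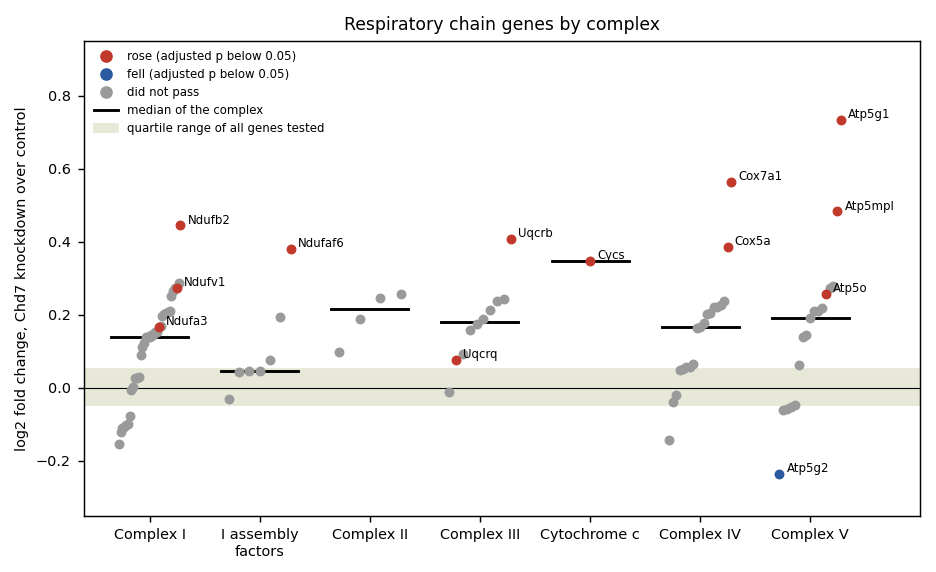
Log2 fold change (KD over Control, 3 arrays each) of the 93 tested respiratory chain genes, 1 point per gene, by complex; black bars are medians and the band spans the quartiles of all genes tested (-0.047 to 0.051). The medians of complexes I to V lie between 0.14 and 0.22, the assembly factors of complex I have a median of 0.047, and Atp5g2 is the gene that fell. The quartiles of the 1022 tested genes at like levels are wider apart than the band (-0.133 and 0.146).

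Complex I takes electrons from NADH. Of its 35 genes, 3 rose (8.57%, against 4.49% of all genes tested) and 32 did not pass. The fold change was positive for 27, and the median log2 fold change was 0.14. Ndufv1, the core subunit that holds the NADH-binding site and the flavin, was at 10.78, 10.84 and 10.78 in KD samples and at 10.50, 10.53 and 10.55 in Control samples. The 2 groups did not overlap, and the log2 fold change was 0.27 (SE 0.0654, limma adjusted p = 0.0321). Ndufb2, an accessory subunit of the membrane arm, was at 10.76, 11.07 and 10.93 in KD samples and at 10.38, 10.72 and 10.33 in Control samples. Array 2 was the highest of each group, KD 1 exceeded Control 2 by little, and the log2 fold change was 0.44 (SE 0.119, limma adjusted p = 0.0484). Ndufa3, another accessory subunit of the membrane arm, was dim, at 6.26, 6.38 and 6.35 in KD samples and at 6.10, 6.20 and 6.19 in Control samples. It was higher on every KD array by a log2 fold change of 0.17 (SE 0.0431, limma adjusted p = 0.0437), on a scale where the offset of 50 understates the fold of dim probes. These calls were close to the threshold: leaving out any 1 of the 6 arrays ended that of Ndufv1 (limma adjusted p 0.0575 to 0.12), leaving out any array but KD 1 ended that of Ndufa3 (0.0731 to 0.137), and leaving out any array but Control 2 ended that of Ndufb2 (0.0623 to 0.153).

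With the replicate block, 8 complex I genes rose (22.9%, against 7.38% of all genes tested). The 5 added were Ndufa8 (log2 fold change 0.27, limma adjusted p = 0.0372 with the block and 0.0817 without), Ndufa11b (0.29, adjusted p = 0.0381 and 0.0924), Ndufab1 (0.21, adjusted p = 0.021 and 0.0941), Ndufa13 (0.25, adjusted p = 0.0308 and 0.105) and Ndufa9 (0.27, adjusted p = 0.0312 and 0.181). Ndufab1 is the mitochondrial acyl carrier protein, which also serves fatty acid synthesis, and Ndufa9 sits near the path to ubiquinone. Without the block, Ndufa11b and Ndufa13 passed when Control 1 was left out (limma adjusted p = 0.0385 and 0.0395). Ndufa13, also known as GRIM-19, has a second, dimmer probe, which was at 7.01, 6.94 and 6.93 in KD samples and at 6.31, 6.45 and 6.40 in Control samples. That probe differed more than the one used, by a log2 fold change of 0.57 (limma adjusted p = 8.1e-04 over all probes). For Ndufb5, an accessory subunit, the probe used gave 0.15 and the dimmer one 0.0098, and neither passed.

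Not all of complex I leaned the same way. Ndufa7, an accessory subunit, was at 11.55, 11.64 and 11.47 in KD samples and at 11.72, 11.68 and 11.73 in Control samples; every KD array was below every Control array, with a log2 fold change of -0.15 that did not pass (limma adjusted p = 0.22). The core iron-sulfur subunits Ndufs1, Ndufs7 and Ndufs8 had log2 fold changes of 0.12, 0.091 and 0.17, and Ndufs3, another core subunit, 0.15. The accessory subunits Ndufa10, Ndufb3, Ndufb10, Ndufb11, Ndufs4 and Ndufs6 had log2 fold changes of -0.12 to -0.077. Ndufa12, whose probe was the brightest of the complex, was at 13.14, 13.39 and 13.24 in KD samples and at 13.30, 13.04 and 13.02 in Control samples, and the groups overlapped.

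Factors named Ndufaf help to build complex I and are not part of it. Of 7, 1 rose (14.3%, against 4.49% of all genes tested). This gene, Ndufaf6, was at 8.67, 8.69 and 8.79 in KD samples and at 8.14, 8.40 and 8.47 in Control samples. Control 1 was the lowest array and the groups did not overlap (log2 fold change 0.38, SE 0.0925, limma adjusted p = 0.0347). Leaving out any array but Control 3 ended the call (limma adjusted p 0.0515 to 0.11). The other 6 had log2 fold changes of -0.030 (Ndufaf8) to 0.19 (Ndufaf4), and the median of all 7 was 0.047. Without these 7 genes, 11 of the 86 remaining genes rose (12.8%, against 4.49% of all genes tested) and 1 fell (1.16%, against 5.15%). The median log2 fold change of these 86 was 0.16.

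Complex II, succinate dehydrogenase, belongs to the citric acid cycle as well and is wholly encoded in the nucleus. None of its 4 genes passed limma's test, with or without the block (3 were higher at an unadjusted p below 0.05). Of all genes tested, 4.49% rose and 5.15% fell without the block. All 4 fold changes of complex II were positive, with a median log2 fold change of 0.22. Sdha, the flavoprotein, was at 11.89, 11.90 and 11.85 in KD samples and at 11.78, 11.71 and 11.58 in Control samples, and Sdhb, the iron-sulfur subunit, was at 11.58, 11.67 and 11.63 in KD samples and at 11.10, 11.46 and 11.55 in Control samples. In both genes the groups did not overlap, with log2 fold changes of 0.19 (limma adjusted p = 0.152) and 0.26 (limma adjusted p = 0.196). The membrane anchors Sdhc and Sdhd overlapped between the groups, with log2 fold changes of 0.25 (limma adjusted p = 0.143) and 0.099 (limma adjusted p = 0.465). Sdhc passed when Control 2, its highest Control array, was left out (log2 fold change 0.35, limma adjusted p = 0.0373).

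Complex III passes electrons from ubiquinol to cytochrome c. Of its 10 genes, 2 rose (20%, against 4.49% of all genes tested) and 8 did not pass, and the median log2 fold change was 0.18. Uqcrb, a small matrix-side subunit next to the ubiquinone site, was at 12.70, 12.74 and 12.66 in KD samples and at 12.30, 12.31 and 12.26 in Control samples. The arrays of each group lay close together, the groups did not overlap, and the log2 fold change was 0.41 (SE 0.062, limma adjusted p = 0.00522). It was 0.43 within gain set 1 and 0.42 within gain set 2. Uqcrq, another small subunit, gave signals barely above the blank spots, at 5.90, 5.86 and 5.86 in KD samples and at 5.80, 5.78 and 5.81 in Control samples. Its log2 fold change of 0.077 (SE 0.0187, limma adjusted p = 0.0341) rests on raw signals of 65.7 to 69.5 in KD samples and 61.6 to 64.9 in Control samples, and leaving out any 1 array ended the call (limma adjusted p 0.0515 to 0.117).

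The other complex III genes included the catalytic ones. Cyc1, the cytochrome c1 subunit, was at 11.69, 11.59 and 11.55 in KD samples and at 11.43, 11.49 and 11.44 in Control samples; the groups did not overlap and the log2 fold change of 0.16 did not pass (limma adjusted p = 0.196). Uqcrfs1, the Rieske iron-sulfur protein, had a log2 fold change of 0.24 (limma adjusted p = 0.0372 with the replicate block, 0.132 without), and Uqcrc2, a core protein, also 0.24 (0.0373 and 0.0851, and 0.0295 without Control 1). A second, dimmer Uqcrc2 probe gave 0.18 with overlap and did not pass (limma adjusted p = 0.328 over all probes). Uqcrc1, the other core protein and the brightest probe of the complex, was at 12.78, 12.83 and 12.70 in KD samples and at 12.61, 12.64 and 12.79 in Control samples, and the groups overlapped. Uqcr10 was the one gene of the complex with a negative value (-0.012). Uqcrh-ps1 is annotated as a pseudogene copy of Uqcrh, the hinge protein; their log2 fold changes were 0.19 and 0.21, neither passed, and signal of near-identical copies cannot be assigned to one of them.

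Cycs codes for somatic cytochrome c, which carries electrons between complexes III and IV and triggers caspase activation when it leaves the mitochondrion. It was at 11.65, 11.54 and 11.48 in KD samples and at 11.20, 11.16 and 11.27 in Control samples. Every KD array was above every Control array, and it rose by a log2 fold change of 0.35 (SE 0.0741, limma adjusted p = 0.0212). Leaving out KD 1, KD 2 or Control 2 ended the call (limma adjusted p = 0.0785, 0.0675 and 0.0791). Cycs has many processed pseudogenes in the mouse genome, and the probe's sequence was not used here.

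Complex IV, cytochrome c oxidase, has several subunits that exist as tissue isoforms, and the array carries most of them. With Ndufa4 and its relative Ndufa4l2 placed here, because the Ndufa4 protein is a subunit of complex IV, 19 of 20 genes were tested. Of these 19, 2 rose (10.5%, against 4.49% of all genes tested) and 17 did not pass, and the median log2 fold change was 0.17. Cox7a1, the isoform known from heart and skeletal muscle, was at 7.94, 7.93 and 7.84 in KD samples and at 7.13, 7.42 and 7.46 in Control samples. Control 1 was the lowest array, no arrays overlapped, and the log2 fold change was 0.56 (SE 0.0884, limma adjusted p = 0.00583). It was 0.64 within gain set 1 and 0.43 within gain set 2. Cox5a, a matrix-side subunit, was at 13.16, 13.19 and 13.15 in KD samples and at 12.67, 12.74 and 12.94 in Control samples. The KD arrays were close together and all above Control (log2 fold change 0.38, SE 0.0798, limma adjusted p = 0.0191), and leaving out KD 1, KD 2, KD 3 or Control 2 ended the call (limma adjusted p 0.0559 to 0.0718).

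Isoforms of 1 subunit did not all give like values. Cox7a2, the widely expressed partner of Cox7a1, was at 13.55, 13.52 and 13.55 in KD samples and at 13.37, 13.35 and 13.29 in Control samples; it lay just outside the threshold (log2 fold change 0.20, limma adjusted p = 0.0559) and inside it with the replicate block (0.0466). Cox7a2l, which joins complexes III and IV into a supercomplex, overlapped between the groups (log2 fold change -0.039, limma adjusted p = 0.865). The broadly expressed isoforms Cox4i1, Cox6b1 and Cox8a had all KD arrays above all Control arrays, with log2 fold changes of 0.16, 0.22 and 0.18 that did not pass. Their partners known from lung (Cox4i2) and muscle (Cox8b) overlapped, with 0.051 and 0.066, and Cox6b2, known from testis, gave 0.23 on its brightest probe and -8.06e-05 and 0.069 on the other 2. Differences between isoforms were not tested.

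Cox6a1, the isoform outside muscle and the brightest probe of the complex, was at 14.19, 14.11 and 14.09 in KD samples and at 14.11, 13.82 and 13.80 in Control samples. KD 3 was below Control 1, and the gene passed with the replicate block (log2 fold change 0.22, limma adjusted p = 0.0426, against 0.151 without) and without Control 1 (0.0147). Cox7b was at 13.07, 13.51 and 13.62 in KD samples and at 12.77, 13.28 and 13.44 in Control samples. Both groups ran over a wide range and overlapped, while each KD array was above the Control array of its number; the limma adjusted p was 0.0276 with the block and 0.478 without. Its fold change was 0.24 over 6 arrays and -0.11 within gain set 2. Cox7c, a small membrane subunit, was at 13.44, 13.35 and 13.40 in KD samples and at 13.67, 13.50 and 13.45 in Control samples, all KD arrays below all Control arrays, and did not pass (log2 fold change -0.14, limma adjusted p = 0.255). Cox5b and Cox6c had log2 fold changes of 0.17 and 0.20 with no overlap, and Cox6a2, Cox7b2, Ndufa4 and Ndufa4l2 had -0.019 to 0.057 with overlap; none of these 6 passed.

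Complex V makes ATP. Of its 17 genes, 3 rose (17.6%, against 4.49% of all genes tested), 1 fell (5.88%, against 5.15%) and 13 did not pass. The fold change was positive for 12, and the median log2 fold change was 0.19. The ring that turns in the membrane is built of the c subunit, which is made from 3 nuclear genes, Atp5g1, Atp5g2 and Atp5g3; the 3 differ in the presequence that targets the protein and give the same mature protein. Atp5g1 was at 10.21, 9.96 and 9.97 in KD samples and at 9.28, 9.39 and 9.27 in Control samples. Each KD array was far above each Control array, and the log2 fold change of 0.73 (SE 0.0866, limma adjusted p = 0.00201, a ratio of 1.66) was the greatest of the 93 genes. Atp5g2 was at 12.41, 12.45 and 12.41 in KD samples and at 12.63, 12.68 and 12.66 in Control samples. It fell on every KD array, by a log2 fold change of -0.23 (SE 0.0599, limma adjusted p = 0.0411, a ratio of 0.85). Atp5g3 was at 14.65, 14.76 and 14.65 in KD samples and at 14.56, 14.40 and 14.27 in Control samples. The groups did not overlap, and the log2 fold change was 0.28, with a limma adjusted p of 0.0544 without the replicate block and 0.0209 with it.

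The 3 genes of the c subunit thus had values in different directions, and only the difference of each between KD and Control was tested. Within gain set 1 the log2 fold changes were 0.63 for Atp5g1, -0.21 for Atp5g2 and 0.27 for Atp5g3, and within gain set 2 they were 0.83, -0.25 and 0.35 in the same order. The call of Atp5g1 remained in each fit without 1 array, in the fit without both arrays numbered 1 and with every normalisation tried. That of Atp5g2 ended without any 1 of the 6 arrays (limma adjusted p 0.0512 to 0.126), with median scaling (0.403), with cyclic loess (0.0547), with the gain set as a block (0.0869) and in the authors' processed values (0.154), while its value stayed between -0.25 and -0.20. Atp5g3 passed without Control 1 (0.0193). The promoters of these 3 genes, and that of Cycs, are shown because the c-subunit genes code for 1 protein and were measured apart, and because Cycs is the classical target of nuclear respiratory factor 1 (NRF1), a regulator of respiratory chain genes. Each is the 150 bases before the RefSeq transcription start (GRCm38.p6), 5′ to 3′ on the gene's strand, which is the minus strand for all 4; capitals mark matches to the NRF1 core GCGCATGC on either strand.
Atp5g1, chr11:96075632-96075781: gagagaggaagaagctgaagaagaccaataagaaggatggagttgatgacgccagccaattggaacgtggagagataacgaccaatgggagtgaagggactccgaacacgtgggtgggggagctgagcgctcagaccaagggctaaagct
Atp5g2, chr15:102671048-102671197: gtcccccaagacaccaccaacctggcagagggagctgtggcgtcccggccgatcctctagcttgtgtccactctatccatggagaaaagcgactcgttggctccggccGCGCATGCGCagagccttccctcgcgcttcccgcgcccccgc
Atp5g3, chr2:73911327-73911476: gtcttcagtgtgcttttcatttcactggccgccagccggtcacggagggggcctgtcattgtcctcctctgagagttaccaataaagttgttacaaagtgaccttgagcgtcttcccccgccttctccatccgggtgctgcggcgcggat
Cycs, chr6:50566570-50566719: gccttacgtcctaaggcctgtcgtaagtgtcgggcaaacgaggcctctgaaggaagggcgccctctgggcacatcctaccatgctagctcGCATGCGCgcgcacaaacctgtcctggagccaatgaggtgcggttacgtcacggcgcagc
The Atp5g2 window holds 2 overlapping matches, 1 on each strand, that begin 42 and 40 bases before the start, and the Cycs window holds 1 match that begins 60 bases before it. The windows of Atp5g1 and Atp5g3 hold no match to these letters.

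The same letters were counted over the promoters of the whole class. RefSeq promoters (250 bases before to 50 after the start) were given for 75 of the 94 genes and for 27025 genes in all. The NRF1 core GCGCATGC was found in 13 of 75 (17.3%), against 3.05% of all promoters. CCGGAAG, the core of sites for ETS factors such as GABP, was found in 18 of 75 (24%), against 9.93%, and AAGATGGC, a form of the YY1 site, in 11 of 75 (14.7%), against 3.19%; both strands were searched, and each motif was counted by itself, also where matches overlap. At least 1 of the 3 was in 35 of 75 (46.7%), against 14.9% of all promoters. Of promoters with at least 10 CpG, 49.3% of those of respiratory chain genes and 26.9% of all held at least 1; the NRF1 core was in 18.3% against 6.09%, the ETS core in 25.4% against 18.5% and the YY1 form in 11 of 71 against 4.98%. Of the 8 genes that rose and have a promoter sequence, 2 held a motif, Cycs (NRF1 core) and Ndufa3 (YY1). A match is a description of the letters and not a site.

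The other 2 complex V genes that rose lie outside the ring. Atp5mpl, a small proteolipid attached to the membrane part, was at 12.72, 12.73 and 12.74 in KD samples and at 12.06, 12.31 and 12.37 in Control samples. The KD arrays lay together above all Control arrays, of which Control 1 was the lowest (log2 fold change 0.48, SE 0.0859, limma adjusted p = 0.0101). It was 0.54 within gain set 1 and 0.36 within gain set 2. Atp5o, the subunit that ties the catalytic head to the stalk (oligomycin sensitivity conferring protein), was at 9.995, 9.970 and 10.008 in KD samples and at 9.76, 9.72 and 9.72 in Control samples. Each group was tight and the log2 fold change was 0.26 (SE 0.0643, limma adjusted p = 0.0377); leaving out any array but Control 1 ended the call (limma adjusted p 0.0862 to 0.113). Atp5md, a small membrane subunit, passed with the replicate block only (log2 fold change 0.27, limma adjusted p = 0.0351, against 0.229 without).

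The subunits of the catalytic head and central stalk of complex V did not pass. Atp5b, the catalytic beta subunit, was at 14.25, 14.32 and 14.18 in KD samples and at 14.23, 14.15 and 14.18 in Control samples, and the groups overlapped (log2 fold change 0.063, limma adjusted p = 0.565). Atp5a1, the alpha subunit, had a log2 fold change of 0.22 with no overlap (limma adjusted p = 0.177). Atp5c1, Atp5d and Atp5e, the gamma, delta and epsilon subunits of the central stalk, had log2 fold changes of -0.058, -0.061 and -0.052, all with overlap. The peripheral stalk and membrane subunits Atp5h, Atp5j and Atp5k had all KD arrays above all Control arrays, with log2 fold changes of 0.21, 0.19 and 0.21 that did not pass. Values for Atp5l, Atp5pb and Atp5j2 were 0.14, 0.14 and -0.048, with overlap.

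**Figure D2:**
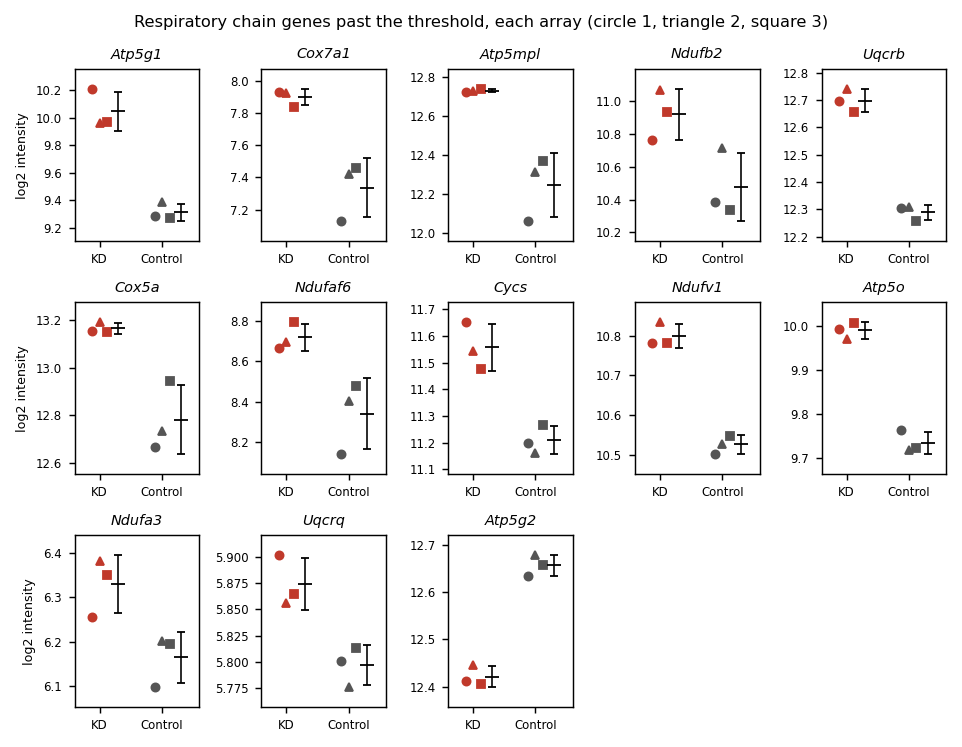
Log2 normalised intensity of the 13 respiratory chain genes past the threshold, 3 KD arrays at the left and 3 Control arrays at the right of each panel; symbols give the array number and bars the mean and SD (n = 3). In all 13 panels the groups do not overlap, and Atp5g2 is the one gene that is lower in KD samples.

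The calls differed in how much they rested on single arrays. Atp5g1, Atp5mpl, Cox7a1 and Uqcrb were called with all 6 arrays, in each of the 6 fits without 1 array and without both arrays numbered 1. In the authors' own processed values, Atp5g1, Cox7a1 and Uqcrb passed, with limma adjusted p of 0.0157, 0.029 and 0.0231, while Atp5mpl had 0.0559. The 93 genes had a median log2 fold change of 0.16 in those values and 76 were positive, and 3 genes passed. Of all 16879 genes tested in those values, limma called 389 higher and 773 lower. With median scaling, Atp5g1, Atp5mpl, Cox7a1, Ndufa3 and Uqcrb kept their calls, and with the gain set as a block Atp5g1, Atp5mpl, Cox5a, Cox7a1, Ndufb2 and Uqcrb kept theirs. Without a variance trend, the calls of Ndufa3, Ndufaf6, Ndufb2 and Uqcrq ended while 7 other genes passed, giving 15 that rose and 1 that fell. Of all 17390 genes tested, that fit called 800 higher and 1012 lower. The class as a whole kept a positive median log2 fold change under every alternative, from 0.13 to 0.17.

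**Figure D3:**
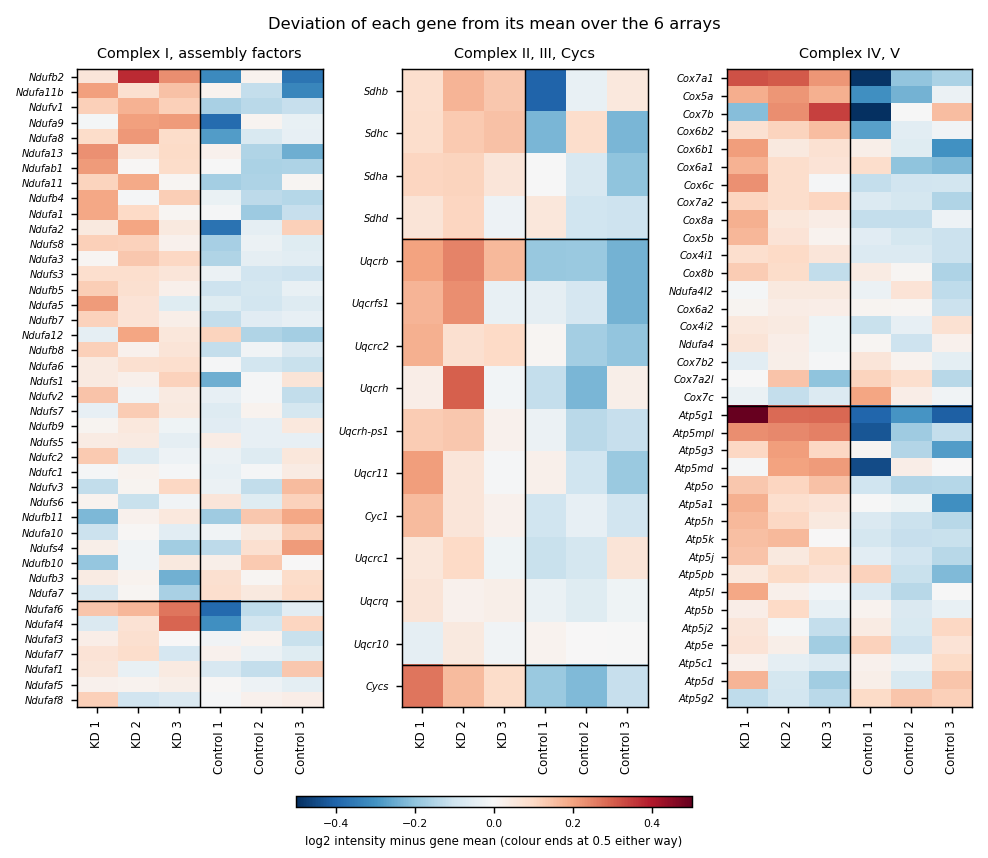
Log2 intensity of each tested respiratory chain gene minus its mean over the 6 arrays, genes in rows by complex and fold change, arrays in columns with KD at the left (red higher, blue lower than the gene's mean). KD columns are mostly red and Control columns mostly blue, with Cox7b and Ndufaf4 varying by array number.

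Genes around the respiratory chain were described from lists of known function. Regulators of mitochondrial biogenesis and upkeep of mitochondrial DNA had 4 of 26 tested genes that rose (15.4%, against 4.49% of all genes tested) and 1 that fell (3.85%, against 5.15%), with a median log2 fold change of 0.013. Ppargc1a, which codes for the coactivator PGC-1 alpha, was at 9.13, 9.03 and 8.90 in KD samples and at 8.57, 8.63 and 8.39 in Control samples, with no overlap (log2 fold change 0.49, SE 0.088, limma adjusted p = 0.0109, and 0.0513 without both arrays numbered 1). Esrra, the nuclear receptor ERR alpha, a partner of PGC-1 alpha, was at 8.70, 8.59 and 8.56 in KD samples and at 8.16, 8.23 and 8.28 in Control samples, again with no overlap (log2 fold change 0.39, SE 0.067, limma adjusted p = 0.00838). Tfam, which packages and transcribes mitochondrial DNA, rose by 0.32 (limma adjusted p = 0.0402), and Lrpprc, which stabilises mitochondrial mRNA, by 0.27 (0.0472). Mterf4, which acts on the mitochondrial ribosome, fell by 0.25 on the log2 scale (0.042). Leaving out any KD array or Control 2 ended the calls of Tfam, Lrpprc and Mterf4, as did leaving out Control 1 for Tfam and Control 3 for the other two (limma adjusted p 0.0821 to 0.148). The genes for NRF1, GABP and YY1, whose motifs were counted above, did not pass (limma adjusted p 0.277 to 0.851). Nrf1 had -0.024, Gabpa -0.055, Gabpb1 0.057, Gabpb2 -0.089 and Yy1 -0.10.

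The citric acid cycle feeds the chain. Its list here also holds Pdha1, Pdhb, Dlat and Pdhx of the pyruvate dehydrogenase complex and the pyruvate carrier Mpc1. This list had 4 of 18 tested genes that rose (22.2%, against 4.49% of all genes tested) and 1 that fell (5.56%, against 5.15%). It had 16 positive fold changes and a median log2 fold change of 0.25. Sucla2, the beta subunit of the ATP-forming succinyl-CoA ligase, was at 9.71, 9.48 and 9.49 in KD samples and at 8.92, 9.04 and 8.97 in Control samples, while Suclg1, the alpha subunit it pairs with, was at 11.70, 11.68 and 11.86 in KD samples and at 12.23, 12.10 and 12.18 in Control samples. Neither overlapped between the groups; Sucla2 rose by a log2 fold change of 0.58 (SE 0.0833, limma adjusted p = 0.00442) and Suclg1 fell, with -0.42 (SE 0.0771, limma adjusted p = 0.0114). Suclg1 did not pass with median scaling (0.0548) or without both arrays numbered 1 (0.057). Dlat of the pyruvate dehydrogenase complex rose by 0.50 (0.0431), Ogdh of the 2-oxoglutarate dehydrogenase complex by 0.33 (0.0274) and Mdh2, malate dehydrogenase, by 0.31 (0.0379), and these 3 calls ended without KD 1 (0.132, 0.104 and 0.117) or Control 2 (0.0744, 0.0944 and 0.108), and each without at least 1 further array.

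Carriers, pores and import proteins had 5 of 23 genes that rose (21.7%, against 4.49% of all genes tested) and, with limma, 0 that fell (0 also at an unadjusted p below 0.05), with a median log2 fold change of 0.14. Phb, the scaffold prohibitin of the inner membrane, rose by 0.41 (limma adjusted p = 0.00901), Vdac2, a pore of the outer membrane, by 0.40 (0.0203), Timm23, the import channel, by 0.33 (0.0189), Slc25a3, the phosphate carrier that supplies ATP synthase, by 0.32 (0.022) and Hspd1, the chaperonin of the matrix, by 0.28 (0.0282). Without KD 1, and likewise without Control 2, the calls of Vdac2, Timm23, Slc25a3 and Hspd1 ended (0.0659 to 0.105), and some ended without further arrays; that of Phb passed in each fit without 1 array, and did not pass with median scaling (0.0514). Assembly factors of complexes I to V outside the Ndufaf genes had 2 of 38 that rose (5.26%, against 4.49% of all genes tested) and, with limma, 0 that fell (2 were lower at an unadjusted p below 0.05), with a median of 0.043. These were Cox11, which inserts copper into complex IV (0.24, limma adjusted p = 0.0244), and Ttc19, which acts on complex III (0.39, 0.0489); without any 1 KD array or Control 2 neither passed (0.067 to 0.142). Sdhaf3 and Uqcc2, factors for complexes II and III, had -0.21 and -0.24 (0.0547 and 0.0548) and passed with the replicate block (0.0453 and 0.0467). Surf1 of the same list had 0.25 (0.0603) and also passed with the block (0.0354). With the block, 3 of these 38 genes rose (7.89%, against 7.38% of all genes tested) and 2 fell.

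Genes that make or handle ubiquinone and cytochrome c had 1 of 18 that rose (5.56%, against 4.49% of all genes tested) and, with limma, 0 that fell (0 also at an unadjusted p below 0.05), with a median log2 fold change of 0.076. The gene was Coq10b, which binds ubiquinone (0.36, limma adjusted p = 0.009, and 0.0524 with median scaling and 0.0525 without both arrays numbered 1); Etfdh, Coq4 and Coq8b had 0.22, 0.18 and 0.19 and did not pass. The mitochondrial ribosome, which makes the subunits encoded in mitochondrial DNA, had 4 of 78 that rose (5.13%, against 4.49% of all genes tested) and 3 that fell (3.85%, against 5.15%), with a median of 0.047. Mrpl18, of the large subunit, was at 9.41, 9.67 and 9.70 in KD samples and at 10.30, 10.33 and 10.29 in Control samples, and Mrps17, of the small subunit, was at 9.974, 9.972 and 9.997 in KD samples and at 10.51, 10.48 and 10.52 in Control samples. Both fell with no overlap, with log2 fold changes of -0.71 (limma adjusted p = 0.00229) and -0.52 (0.00228). Mrpl1 fell as well (-0.40, 0.0115, and 0.0525 and 0.0511 without KD 1 and KD 2). Mrps25 rose by 0.37 (0.00879), and Mrpl53, Mrps26 and Mrps30 by 0.33, 0.33 and 0.26 (0.0428, 0.0445 and 0.0482); the last 3 did not pass without KD 1 (0.136, 0.126 and 0.148) or Control 2 (0.128, 0.125 and 0.114), and each failed without at least 2 further arrays. In the authors' processed values, limma called 2 higher and 0 lower genes of the biogenesis list, 1 and 1 of the citric acid cycle list, 2 and 0 of the carriers, 0 and 0 of the assembly factors, 1 and 0 of the ubiquinone list and 1 and 3 of the mitochondrial ribosome. Of all 16879 genes tested in those values, 389 were called higher and 773 lower.

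**Figure D4:**
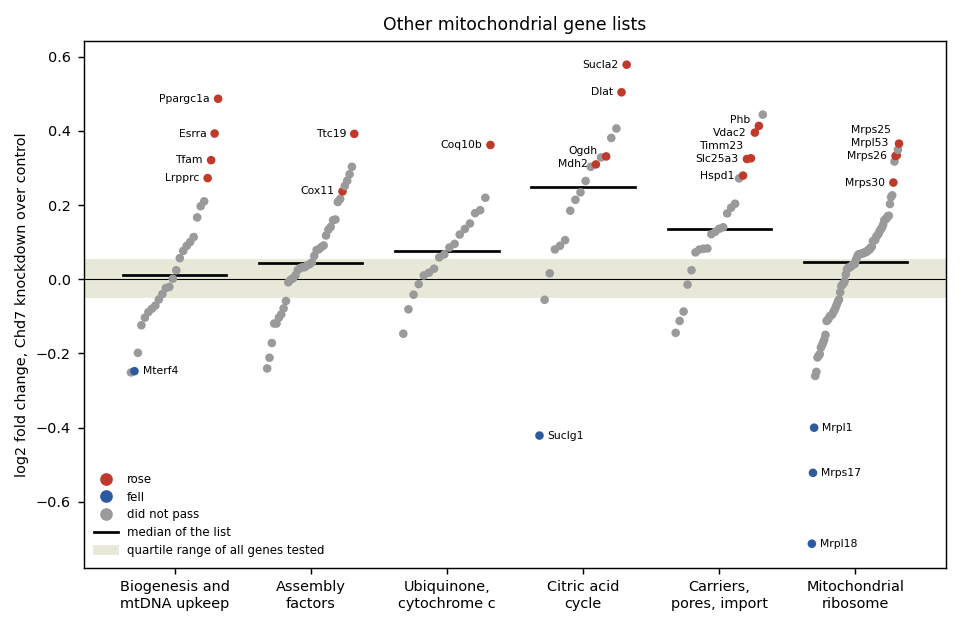
Log2 fold change (KD over Control, 3 arrays each) of the tested genes of 6 further mitochondrial lists, 1 point per gene, ordered within each list, with the list's median as a bar and the quartiles of all genes tested as the band. The median of the citric acid cycle list, which includes pyruvate dehydrogenase genes and Mpc1 (0.25), lies above the band. Those of the assembly factors (0.043), biogenesis (0.013) and the mitochondrial ribosome (0.047) lie inside it, and red and blue points are genes past the threshold. The quartiles of the 1022 tested genes at the respiratory chain genes' levels are wider apart than the band (-0.133 and 0.146).

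Cell type markers differed between the same groups. For the labelled cell type, 7 of 8 markers of oligodendrocyte precursors were on the array and these 7 were above the blank spots on every array. Their summed linear level was 9363 to 10660 in KD samples and 12275 to 14560 in Control samples, with no overlap. Of the 7, 5 fell (71.4%, against 5.15% of all genes tested): Pdgfra, Cspg4, Lhfpl3, Sox10 and Olig2. Of these, Olig2 did not pass with median scaling, without KD 2 or KD 3, or without both arrays numbered 1. The 7 neuronal markers summed to 407 to 554 in KD samples and 611 to 738 in Control samples, and Dcx and Map2 fell (28.6%, against 5.15% of all genes tested). The median log2 fold change of the 7 was -0.017, with 3 positive and 4 negative, and the sum does not show a change shared by the list. Dcx had the lowest value (-0.71). Dcx was at 7.84, 8.03 and 8.32 in KD samples and at 8.72, 8.66 and 8.93 in Control samples. The call of Map2 ended under 13 alternatives, among them each fit without 1 array (limma adjusted p 0.0656 to 0.168). The other 5 neuronal markers did not pass; Syt1 had 0.20 and Tubb3 -0.20 (limma adjusted p = 0.214 and 0.219, and 0.017 and 0.033 with the replicate block), and Snap25, Stmn2 and Rbfox3 had 0.011, -0.017 and 9.3e-04. Of 6 astrocyte markers, 3 had positive and 3 negative fold changes, and none passed without the block. With the replicate block, Gjb6, a dim probe, rose (log2 fold change 0.19, limma adjusted p = 0.0181) and Slc1a2 fell (-0.47, 0.0163). The sums of these 6 astrocyte markers (3918 to 4560 in KD samples, 3718 to 5066 in Control samples) and of 6 pericyte and fibroblast markers (76.5 to 83.9 in KD samples, 75.3 to 85.7 in Control samples) overlapped. So did those of 7 microglial markers (123 to 132 in KD samples, 118 to 128 in Control samples), among which Tmem119 was not above the blank spots on any array, and of 5 endothelial markers (44.2 to 49.2 in KD samples, 37.9 to 50.6 in Control samples), among which Cldn5 and Tek were not. The 2 ependymal markers measured summed to 185 to 257 in KD samples and 127 to 167 in Control samples. Foxj1, 1 of the 2, rose (log2 fold change 0.45, limma adjusted p = 0.0322), against 4.49% of all genes tested that rose. The call of Foxj1 ended under 9 alternatives, among them the authors' processed values (0.0984) and without KD 1, KD 2, Control 2 or Control 3. Fewer cells of a type and less RNA per cell cannot be told apart in these bulk samples, and the part of the cell makeup in the values of the respiratory chain genes was not tested.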

How the data were processed

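One-colour arrays of 3 Chd7 KD and 3 Control samples were analysed. The deposited intensity of each spot is its median at 635 nm, joined from 3 scanner gains by least squares, per the file headers; the dye was Cy5, attached to amplified amino allyl RNA, per the labels' protocols. The authors' second table of intensity values, of unstated processing, was used as an alternative, as log2(value + 16), for the 20344 probes with all 6 values. Of 27456 spots, 3982 were controls or empty. Spot intensities were corrected with normexp (offset 50, no local background), quantile normalised, put on the log2 scale and averaged per probe. Probes above the blank mean by 2 SD on at least 3 of 6 arrays were kept, 1 probe per gene (highest mean), giving 17390 genes. KD and Control were compared with limma 3.58.1 in R 4.3.3 (lmFit, eBayes with trend), 2-sided, Benjamini-Hochberg over all genes, threshold 0.05; the script was tested on simulated data. With 3 arrays a group, the number of arrays limits the precision. Same-numbered arrays deviated together (correlations 0.36, 0.38 and 0.23 over genes), so the numbers were taken as pairs, which the labels do not state. Respiratory chain genes were named where past the threshold with or without the block, as the 4 smallest p and the brightest probe of each complex, and as isoform pairs. Genes of the other mitochondrial lists were named where past the threshold without the block and as the 4 smallest p of each list. Further genes of these lists passed with the block and are not described. Other genes named were chosen after their values were seen. Members, lists and motifs were chosen with earlier results of these data known. Alternatives covered background, normalisation, filter, variance model, weights, blocks, probe, threshold and left-out arrays; those without both arrays numbered 1 and within gain sets were added after seeing the data. Promoters are RefSeq's (GRCm38.p6).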

Additional observations from a re-analysis of the deposited data

How the results depend on the processing

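Over the alternatives, the median log2 fold change of the respiratory chain genes was 0.13 to 0.17, while the number that passed moved. Against 12 that rose and 1 that fell in the fit as reported, limma called 5 and 0 with median scaling, 11 and 0 with cyclic loess, 3 and 0 in the authors' processed values, 7 and 0 with the gain set as a block, 21 and 1 at a threshold of 0.1, and 6 and 0 without both arrays numbered 1. Counts over all genes moved as well, from 781 and 896 of 17390 in the fit as reported. They were 526 and 708 with median scaling, 792 and 862 with cyclic loess, and 389 and 773 of 16879 in the authors' processed values. With the gain block they were 538 and 622, at a threshold of 0.1 they were 1274 and 1414. Without both arrays numbered 1 they were 378 and 423. The respiratory chain genes called were not all the same: the gain block shared 6 of its 7 calls with the fit as reported, and the fit without arrays numbered 1 shared 4 of its 6. With no variance trend 16 were called, 9 of them shared and 7 added (Atp5h, Atp5j, Atp5k, Cox4i1, Cox7a2, Ndufb5 and Ndufs3), and with array weights 15, of them 12 shared. Leaving out 1 array gave 4 to 12 that rose and 0 that fell. Within gain set 1 and within gain set 2, with 3 arrays each, a group has a single array, so calls are not counted there. Where the count that fell was 0, the unadjusted test had 0 to 2 lower. Over all genes, limma called 800 and 1012 with no variance trend, and 976 and 1057 with array weights. Fits without 1 array called 348 to 684 of all genes higher and 394 to 779 lower. With the replicate block 24 respiratory chain genes rose and 1 fell. The pairing added 12 of these genes, ended none of the 13 calls, and the count of all genes was 1284 and 1293 against 781 and 896 without it. Chd7 stayed lower under every alternative, with log2 fold changes of -0.98 to -0.48. It was at -0.88 within gain set 1 and -0.96 within gain set 2, and it passed in all fits with more than 1 array in each group. Of the 93 tested genes, 22 reversed their sign under at least 1 alternative; none of the 22 passed in the fit as reported, and Cox7b, which passed with the replicate block, is the one that passed under any. Within gain set 2 the sign turned negative for Cox7b (-0.11), Ndufaf4 (-7.2e-04), Uqcrc1 (-0.042), Ndufa4 (-0.0038), Ndufa2 (-0.069), Ndufb9 (-0.058), Uqcrh (-0.020) and Cox4i2 (-0.063, and -0.0054 without arrays numbered 1), and on another probe for Cox6b2 (-8.06e-05). Within gain set 1 it turned positive for Ndufs4 (0.0089), Ndufb11 (0.041), Atp5j2 (0.012) and Atp5e (0.023). Without 1 array, Ndufaf8 ranged from -0.096 to 0.011, Atp5j2 from -0.096 to 0.0027, Atp5e from -0.12 to 0.025 and Atp5d from -0.17 to 0.0093. With the gain block, within gain sets 1 and 2 and without 1 array, Cox7a2l had 0.041, 0.045, 0.038 and -0.12 to 0.051. Ndufc2 had -0.0098, -0.018, -0.011 and -0.031 to 0.067, and -0.042 without arrays numbered 1. With the gain block, within gain set 2, without arrays numbered 1 and without 1 array, Cox7b2 had 0.0060, 0.022, 0.028 and -0.049 to 0.0067, Ndufc1 had -0.0035, -0.050, -0.011 and -0.016 to 0.024, and Ndufaf1 had -0.0092, -0.080, -0.0036 and -0.0026 to 0.12. With median scaling, cyclic loess, without arrays numbered 1, within gain set 1 and without 1 array, Uqcr10 had 0.017, 5.1e-04, 0.016, 0.038 and -0.035 to 0.0082 (0.0039 with the gain block), and Ndufv3 had 0.028, 0.025, 0.039, 0.090 and -0.070 to 0.071 (0.0020 in the authors' processed values, 0.043 with array weights). The cause of these moves was not tested; fits with fewer arrays have fewer residual degrees of freedom. Probes near the blank spots (Uqcrq, Ndufa3, Ndufaf5, Cox6a2, Cox7b2, Ndufc1) limit what can be said of these genes.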
